A study of Mus musculus with 8 samples.

Results

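Dorsal skin from mice labelled as Il22ra1 KO was compared with WT dorsal skin, both without imiquimod cream (IMQ) in the label. The arrays KO_CTRL and KO_CTRL-B came from male mice whose label gives the strain as B6.Cg-Il22ra1tm1.1Koll/J, and the array WT_CTRL from male C57BL/6 mice. Genes were kept where both KO arrays lay on the same side of WT_CTRL, and genes on which the KO arrays went opposite ways were listed apart. The comparison uses 3 of the 8 arrays of the series and covers 22180 genes. Of these, 6905 (31.1%) were higher than WT_CTRL on both KO arrays, 6172 (27.8%) were lower on both, 9081 (40.9%) went opposite ways and 22 equalled WT_CTRL on a KO array. Values are log2 expression, so that a difference of 1 log2 unit is 2-fold.

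The arrays KO_IMQ, KO_IMQ_B and WT_IMQ, which played no part in choosing the genes, were used for a second look. Their labels share the genotypes and add IMQ, given as 83.3 mg of 5% cream each day from day 1 to day 7, with cream that held vehicle or the insect-derived peptide alloferon 6 hours afterwards in treated groups. The KO arrays with alloferon entered the group levels of the fit and the choice among several probe sets of a gene, and no comparison. The study states 4 mice per group. The age of the mice, what mice without IMQ received, whether an array holds 1 mouse or a pool, and what the letter B stands for are not given in the sources used here. The KO label names a targeted Il22ra1 allele and no Cre line.

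IL-22 is a cytokine of T cells and innate lymphoid cells. Its receptor pairs the alpha chain Il22ra1, carried by epithelial cells such as keratinocytes, with Il10rb, and signals through Jak1, Tyk2 and Stat3 towards antimicrobial proteins, acute-phase proteins and repair. The receptor is also shared with IL-20 and IL-24 when Il22ra1 pairs with Il20rb. Sebaceous glands, which open into the hair follicle, make sebum from wax esters, triglycerides and cholesterol esters.

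Il22ra1 itself was somewhat higher, not lower, where the label was KO. Its probe set read 8.91 on KO_CTRL and 8.59 on KO_CTRL-B, against 8.23 on WT_CTRL, and with IMQ it read 8.88 and 8.91 on the KO arrays, against 8.64 on WT_IMQ. Every KO array thus lay above the WT array it was set against. Neither what the probes cover nor whether the allele acts without a Cre line is given in the sources used here. The genotype was thus not checked by this level, and every direction between KO and WT given here rests on the labels.

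All 3 arrays carried the markers of skin. Krt14, the keratin of basal epidermis, read 10.97 and 11.23 on the KO arrays and 10.96 on WT_CTRL, and the collagen gene Col1a1 read 12.63 and 12.80 on the KO arrays and 12.74 on WT_CTRL. Genes of liver, brain and pancreas stayed between 3.92 and 5.65, below the median gene level of these arrays, which was 6.07. Hair, pigment and muscle genes differed more between the KO arrays than between either and WT_CTRL, and their values are given with the genes that went opposite ways. KO_CTRL differed 2-fold or more from KO_CTRL-B in 631 genes (2.84%), and from WT_CTRL in 297 (1.34%); KO_CTRL-B differed 2-fold or more from WT_CTRL in 253 (1.14%).

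No single gene passed a test between the genotypes. In limma, fitted over all 8 arrays with the spread taken from the pairs KO_CTRL with KO_CTRL-B and KO_IMQ with KO_IMQ_B, 0 of 22180 genes (0%) had an adjusted p under 0.05 without IMQ. The smallest adjusted p was 1, and 690 genes had an unadjusted p under 0.05, where chance gives 1109. WT_CTRL is 1 array and was assumed to vary like the KO arrays. The labels do not say which mice each array holds, so that the spread behind each p may be technical. For 1 gene, 2 arrays against 1 cannot give a two-sided permutation p below 0.333. In simulated data the fit called 0% of genes shifted by 1 log2 unit, 78.5% of those shifted by 2 and 94% of those shifted by 3, so that differences near 2-fold could not have been called. Standard errors given with ± are those of limma for the mean of the KO arrays minus WT.

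Genes apart from WT_CTRL by 2-fold or more on both KO arrays were few. There were 5 such genes higher (0.0225%) and 6 lower (0.0271%). The 5 higher genes were Aadacl4fm5, Cyp2b23, Oas1g, the microRNA gene Mir1947 and the clone-type gene 4933405O20Rik. The 6 lower were the receptor genes Olfr494, Olfr967, Vmn1r173 and Vmn1r35, the immunoglobulin segment Igkv6-23 and 1700010D01Rik, all with a highest reading on the 3 arrays below the median gene level. Among the 11, 2 had a reading above that level, Aadacl4fm5 and Cyp2b23. At 1.5-fold, 129 genes were higher on both KO arrays (0.582%) and 66 lower (0.298%).

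**Figure D1:**
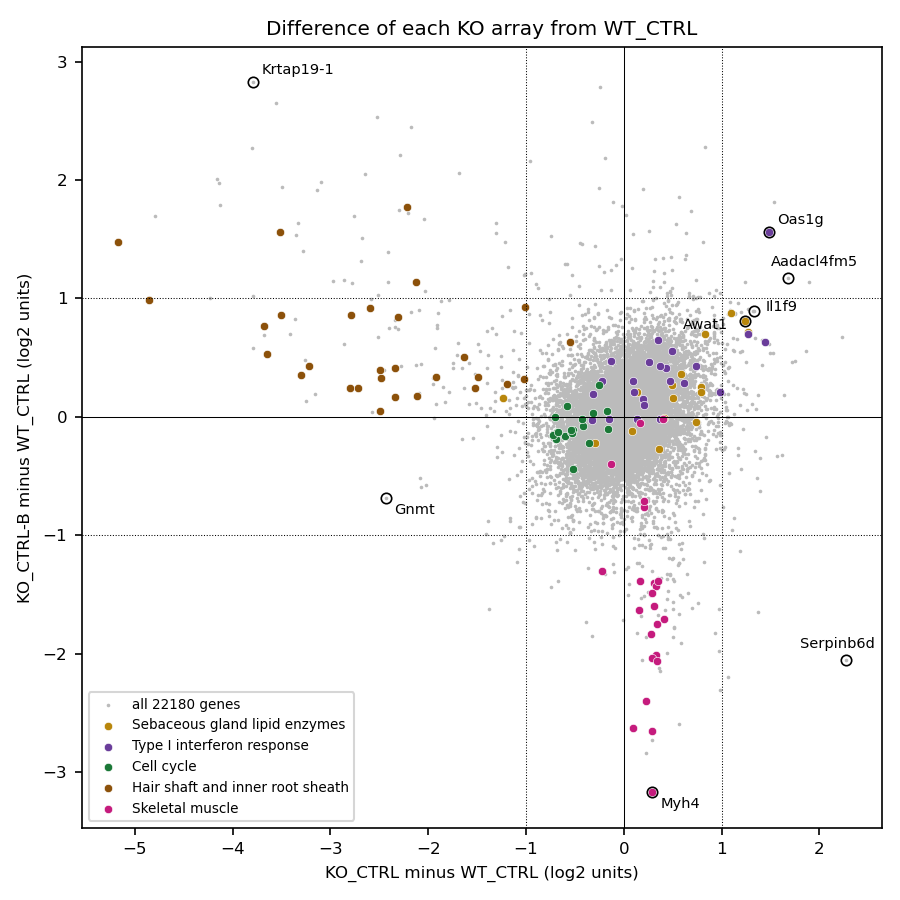
Each point is 1 of 22180 genes, placed by its log2 difference from WT_CTRL on KO_CTRL (horizontal) and on KO_CTRL-B (vertical); dotted lines mark 2-fold, and colours mark 5 gene lists. Same-direction genes lie at the upper right and lower left, where Oas1g, Aadacl4fm5, Il1f9 and Awat1 stand out above and Gnmt below, while hair genes spread to the upper left and muscle genes to the bottom.

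The 12 genes furthest higher on both KO arrays were taken from those with a reading above the median level, which some, such as Cyp2b23 and Krt24, passed only through the KO arrays. Aadacl4fm5, of the arylacetamide deacetylase-like family of esterases, read 8.91 and 8.40 on the KO arrays, against 7.23 on WT_CTRL (1.42 ± 0.26 log2 units). Its relative Aadacl3 read 8.49 and 8.31, against 7.47 on WT_CTRL (0.93 ± 0.17). The carboxylesterase gene Ces4a read 8.62 and 8.31, against 7.42 on WT_CTRL (1.04 ± 0.20). On all of these the KO arrays lay closer to each other than to WT_CTRL. That both lay clear of WT_CTRL was set by the choice, which ranked genes by the smaller difference from that array. Cyp2b23, a cytochrome P450 gene, read 6.78 and 6.02 on the KO arrays and 4.89 on WT_CTRL, and Sgpp2, a phosphatase of sphingosine 1-phosphate, read 7.40 and 7.33 on the KO arrays and 6.47 on WT_CTRL. Lipk, an epidermal member of the acid lipase family, read 7.71 and 7.28 on the KO arrays and 6.39 on WT_CTRL. The remaining genes of the 12 furthest higher were the desaturase gene Scd3 and the wax ester synthase gene Awat1, given with the sebaceous list, the cytokine gene Il1f9, the keratin gene Krt24, the late cornified envelope gene Lce1h and the sugar transporter gene Slc5a9. Krt24 read 6.20 and 6.01 on the KO arrays and 5.12 on WT_CTRL (0.99 ± 0.17). Lce1h was less even, at 5.08 and 6.53 on the KO arrays and 4.25 on WT_CTRL.

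The 12 genes furthest lower on both KO arrays were ranked in the same way, by the smaller of the 2 differences. Small RNA genes were left out by their symbols, a pattern that did not cover the accession-type symbol DQ267102. Oser1 read 6.67 and 6.59 on the KO arrays, against 7.26 on WT_CTRL (-0.63 ± 0.18), and Tpm1, which encodes an actin-binding tropomyosin, read 8.79 and 8.72, against 9.37 on WT_CTRL (-0.61 ± 0.20). Tagln, which encodes the smooth muscle protein transgelin, read 7.01 and 7.66 on the KO arrays and 8.19 on WT_CTRL. Erdr1 read 10.58 and 10.22 on the KO arrays and 11.16 on WT_CTRL, and Il12rb2, a receptor chain for IL-12, read 6.62 on both KO arrays and 7.13 on WT_CTRL. Gnmt, a methyltransferase that uses glycine, and Sptssb, a small subunit of serine palmitoyltransferase, were lower on both but uneven. Gnmt read 5.72 and 7.47 on the KO arrays, against 8.16 on WT_CTRL, and Sptssb read 4.09 and 5.57, against 6.16 on WT_CTRL. The other genes of the 12 were Xlr3a, Anp32e, Slc36a4, Abracl and DQ267102, whose fitted differences lay between -0.64 and -0.60. Oser1, Slc36a4, Erdr1 and Abracl have 2 probe sets each, of which the brighter was used. With their probe sets averaged, the differences were -0.25 for Oser1, -0.24 for Slc36a4, -0.56 for Erdr1 and -0.65 for Abracl. Around the 2-fold line, Cyp2b23 and Aadacl4fm5 lay just inside with smaller differences of 1.14 and 1.17, and Krt24 and Lipk just outside with 0.90 each. On the lower side, with small RNA, receptor, antigen receptor segment and clone-type genes left out, no gene with a reading above the median level lay inside, and the nearest outside were Gnmt (-0.68) and Oser1 (-0.59).

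**Figure D2:**
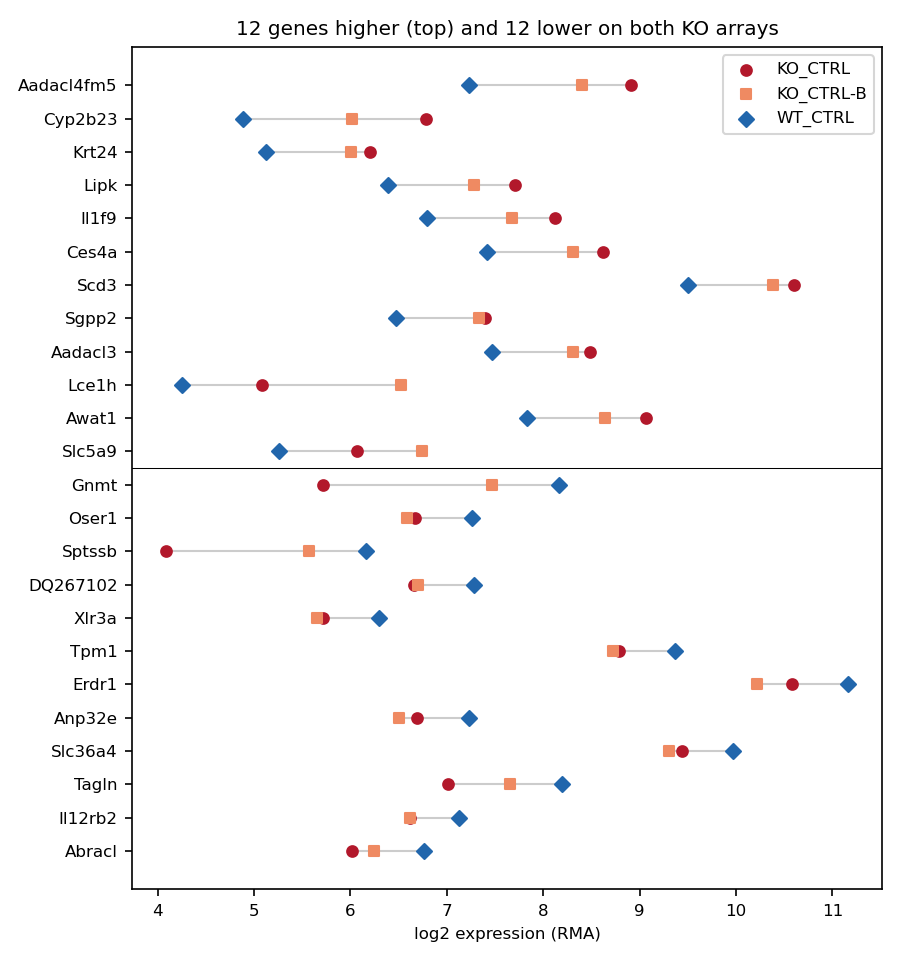
Log2 expression on KO_CTRL (circles), KO_CTRL-B (squares) and WT_CTRL (diamonds) for the 12 genes furthest higher and the 12 furthest lower on both KO arrays, ranked by the smaller of the 2 differences. The KO symbols of most genes lie close together, while Lce1h, Gnmt and Sptssb are spread between the KO arrays.

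Most genes of the sebaceous gland list were higher on both KO arrays. In this and every other list or family, both KO differences share 1 WT array. A shift of that array moves both, so that agreement between the KO arrays is not evidence of a genotype difference. Of 16 measured members, 10 (62.5%) were higher on both KO arrays, where 31.1% of all genes were, 1 was lower on both and 5 were split. The list was chosen with earlier results of these data known, and it holds Scd3 and Awat1, ranked above on the same values. The median difference from WT_CTRL was 0.54 on KO_CTRL and 0.21 on KO_CTRL-B, where the medians over all genes were 0.00 and 0.01. Awat1, which joins fatty alcohols to fatty acids to make wax esters, read 9.07 and 8.64 on the KO arrays and 7.83 on WT_CTRL (1.02 ± 0.22). Dgat2l6, of the same acyltransferase family, read 7.83 and 7.28 on the KO arrays and 6.56 on WT_CTRL (0.99 ± 0.26). Scd3, a stearoyl-CoA desaturase of mouse skin, read 10.60 and 10.38 on the KO arrays and 9.50 on WT_CTRL (0.99 ± 0.28). These 3 genes and the fatty acid elongase gene Elovl3, at 11.22 and 11.09 on the KO arrays and 10.39 on WT_CTRL, were the 4 members past 1.5-fold on both. In the reference annotation Awat1 and Dgat2l6 are neighbours with 0 protein-coding genes between them.

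The other sebaceous genes differed less or not in 1 direction. Far2, a reductase that makes fatty alcohols, read 11.52 and 10.98 on the KO arrays and 10.73 on WT_CTRL, and Cidea, a lipid droplet protein gene, read 8.15 and 7.57 on the KO arrays and 7.36 on WT_CTRL. Fasn, the fatty acid synthase gene and the member lower on both, read 10.68 and 10.75 on the KO arrays and 10.97 on WT_CTRL. The receptor gene Mc5r, which marks sebocytes, read 8.54 and 8.60 on the KO arrays and 8.40 on WT_CTRL. The split members were Awat2, Fads2, Pparg, Plin5 and Mgst1. Fads2, a fatty acid desaturase gene, read 7.30 and 8.70 on the KO arrays and 8.54 on WT_CTRL. In bulk skin, more cells of a type and more RNA per cell cannot be told apart. The list of hair shaft and inner root sheath genes, whose follicles carry these glands, had median differences of -2.48 on KO_CTRL and 0.43 on KO_CTRL-B, which lie on opposite sides of 0 where the sebaceous medians lie on the same side. The part of follicle content in the sebaceous values was not tested.

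The arylacetamide deacetylase family was looked at as a whole after its 2 members were seen among the leading genes. Of 11 measured members, 7 (63.6%) were higher on both KO arrays and 0 lower on both, where 31.1% and 27.8% of all genes were, with medians of 1.02 on KO_CTRL and 0.54 on KO_CTRL-B. The 7 include the 2 members that prompted the look. Aadacl4 read 10.31 and 9.35 on the KO arrays and 8.81 on WT_CTRL, and Aadacl4fm2 read 8.68 and 7.37 on the KO arrays and 6.82 on WT_CTRL. Aadacl3 and Aadacl4fm5 are on the chromosome of Il22ra1 in the reference annotation, with 146 and 152 protein-coding genes in between.

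The arrays with IMQ gave a look at the same genes in samples the choice had not used. Of the 129 genes 1.5-fold higher without IMQ, 62 (48.1%) were higher on both KO arrays with IMQ, where 39.0% of all genes were, and 30 (23.3%) were lower on both, where 30.8% of all genes were. At 1.5-fold on both, 17 of the 129 (13.2%) were higher with IMQ, where 1.22% of all genes were. Of the 66 genes 1.5-fold lower without IMQ, 25 (37.9%) were lower on both KO arrays with IMQ, where 30.8% of all genes were, and 17 (25.8%) were higher. Of these 66, 4 (6.06%) were 1.5-fold lower with IMQ, where 1.05% of all genes were. The 129 and the 66 were chosen for a 1.5-fold difference, so that all genes are an unlike base at that threshold. Members that were 1.5-fold apart the other way with IMQ were not counted. In limma 0 genes (0%) passed between KO and WT with IMQ, with a smallest adjusted p of 0.958 and 1068 genes at an unadjusted p under 0.05.

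The 17 genes that were 1.5-fold higher on all 4 KO arrays without alloferon held 4 sebaceous enzymes, 2 arylacetamide deacetylase-like esterases and 2 clade A serpins. They were chosen on these values, which are given as a description. Scd3 read 7.87 and 8.43 on the KO arrays with IMQ, against 6.12 on WT_IMQ (2.03 ± 0.28). Awat1 read 8.77 and 8.73, against 7.23 on WT_IMQ (1.52 ± 0.22), and Dgat2l6 read 7.40 and 7.44, against 5.90 on WT_IMQ (1.53 ± 0.26). Elovl3 read 11.09 and 11.34 on the KO arrays with IMQ and 10.11 on WT_IMQ (1.11 ± 0.19). For each of these 4 genes the KO arrays lay above WT both without and with IMQ. Aadacl3 read 9.04 and 9.02 on the KO arrays with IMQ and 7.47 on WT_IMQ (1.56 ± 0.17), and Aadacl4fm5 read 8.27 and 8.47 on the KO arrays with IMQ and 7.29 on WT_IMQ (1.08 ± 0.26). Ces4a read 8.54 and 8.39 on the KO arrays with IMQ and 6.98 on WT_IMQ (1.48 ± 0.20).

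Serpina3j and Serpina3b encode clade A serpins, inhibitors of serine proteases. Serpina3j read 8.84 and 9.76 on the KO arrays without IMQ, against 8.21 on WT_CTRL, and 9.04 and 8.87 on the KO arrays with IMQ, against 6.24 on WT_IMQ. Serpina3b read 10.10 and 9.87 on the KO arrays without IMQ, against 9.23 on WT_CTRL, and 7.11 and 7.27 with IMQ, against 5.92 on WT_IMQ. All 5 measured genes of that serpin group were higher on both KO arrays without IMQ, where 31.1% of all genes were, and 3 were with IMQ, where 39.0% were. These counts include Serpina3j and Serpina3b, which were picked for being higher. Lcn2, an antimicrobial lipocalin that binds bacterial iron carriers and is known as a target of IL-22, read 6.47 and 6.14 on the KO arrays without IMQ and 5.51 on WT_CTRL (0.79 ± 0.41). With IMQ Lcn2 read 9.08 and 8.14 on the KO arrays and 6.71 on WT_IMQ (1.90 ± 0.41). The others of the 17 were Cyp2b23, Sgpp2, Mansc1, Sec14l4, Apol7c, Sprr2g and Gm1966, with fitted differences of 0.73 to 1.52 without IMQ and 0.78 to 1.48 with IMQ. Sprr2g, a small proline-rich cornified envelope gene, was dim without IMQ, at 3.24 and 3.42 on the KO arrays and 2.37 on WT_CTRL. Of the 4 genes 1.5-fold lower on all 4 KO arrays, Crygf, Igkv6-23 and Klk1b27 read at most 3.46 on the 3 arrays without IMQ, and DQ267102 read 6.66 and 6.70 on the KO arrays and 7.28 on WT_CTRL without IMQ.

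**Figure D3:**
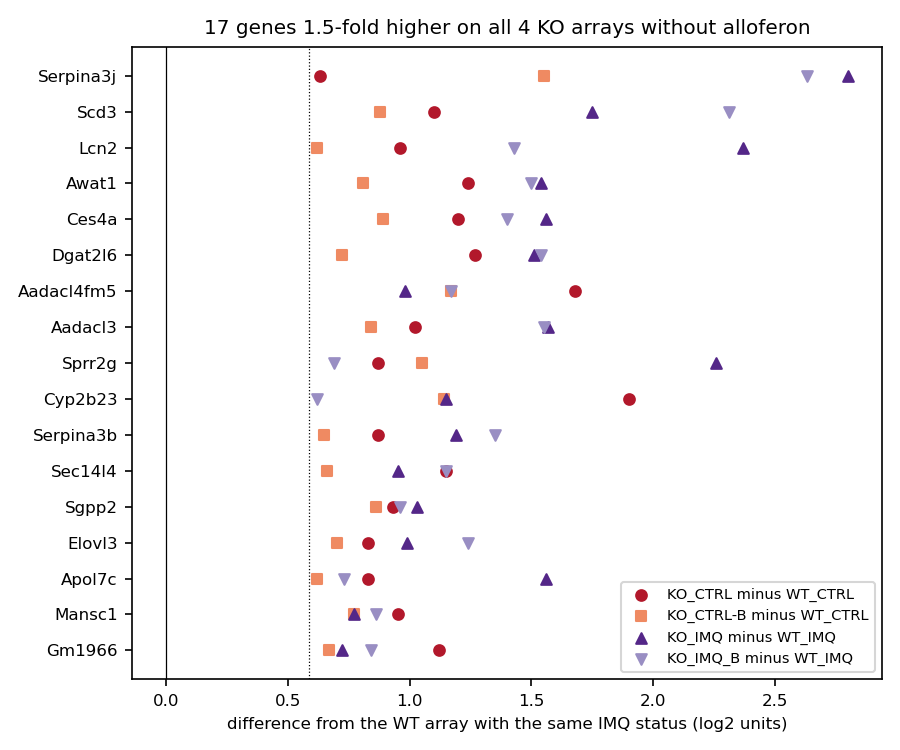
Log2 difference from the WT array with the same IMQ status for the 17 genes 1.5-fold higher on KO_CTRL (circles), KO_CTRL-B (squares), KO_IMQ (upward triangles) and KO_IMQ_B (downward triangles); the dotted line marks 1.5-fold. Both triangles lie to the right of both other symbols for Scd3, Awat1, Dgat2l6, Elovl3, Serpina3j, Serpina3b, Aadacl3, Ces4a, Lcn2 and Sgpp2, and not for the other genes.

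The size of the genotype difference without and with IMQ was compared in the same fit. In limma 0 genes (0%) passed for the difference of the 2 differences, with a smallest adjusted p of 0.9996, and 721 genes had an unadjusted p under 0.05. For Scd3 the difference without IMQ minus that with IMQ was -1.04 ± 0.39, for Aadacl3 it was -0.64 ± 0.24, and for Awat1 it was -0.49 ± 0.32. The genes with the smallest unadjusted p in that comparison were Osr2, Fat4 and Fibin on the positive side and Csrp3, Atp5g1 and Sprr4 on the negative side. Osr2, a transcription factor gene, read 7.02 and 7.04 on the KO arrays without IMQ, against 6.43 on WT_CTRL, and 6.76 and 6.79 with IMQ, against 7.57 on WT_IMQ. The atypical cadherin gene Fat4 read 6.74 and 6.83 on the KO arrays without IMQ, against 6.86 on WT_CTRL, and 6.89 and 6.87 with IMQ, against 8.29 on WT_IMQ. For Fat4 it is the single WT_IMQ array that stands apart from the other readings.

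Type I interferon response genes were mostly higher on both KO arrays without IMQ, and mixed in direction with it. The direction without IMQ rests on the single WT_CTRL array for every gene. Of 23 measured type I interferon response genes, 16 (69.6%) were higher on both KO arrays and 2 (8.70%) lower on both, where 31.1% and 27.8% of all genes were, with medians of 0.35 on KO_CTRL and 0.30 on KO_CTRL-B. With IMQ, 5 were higher on both KO arrays and 7 lower, where 39.0% and 30.8% of all genes were, with medians of -0.23 on KO_IMQ and 0.11 on KO_IMQ_B. Oas1g, an oligoadenylate synthetase whose product activates RNase L, read 5.63 and 5.71 on the KO arrays and 4.15 on WT_CTRL without IMQ (1.52 ± 0.18). With IMQ it read 5.58 and 5.83 on the KO arrays and 5.71 on WT_IMQ (-0.01 ± 0.18), so that WT_CTRL was the only low reading among these 6 arrays. The difference between the 2 differences was 1.53 ± 0.26 for Oas1g, with an adjusted p of 1 in limma. Ifit1, whose product binds viral RNA that lacks a host cap mark, read 6.92 and 6.11 on the KO arrays without IMQ and 5.48 on WT_CTRL, and the antiviral GTPase gene Mx2 read 5.53 and 4.96 on the KO arrays and 4.26 on WT_CTRL. These 3 genes were the members past 1.5-fold on both KO arrays, and Oas1g and Mx2 lay below the median gene level on all 3 arrays. Isg15, a ubiquitin-like product of the same response, read 4.82 and 5.12 on the KO arrays and 5.15 on WT_CTRL.

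Genes of the interferon gamma response were higher on both KO arrays without IMQ in 12 of 18 (66.7%) and lower in 1, where 31.1% and 27.8% of all genes were. Irgm2, an immunity-related GTPase gene, read 7.46 and 6.67 on the KO arrays and 6.21 on WT_CTRL, and Gbp4, a guanylate-binding protein gene, read 5.66 and 5.52 on the KO arrays and 4.92 on WT_CTRL. With IMQ, 11 of the 18 were higher on both KO arrays and 5 lower, where 39.0% and 30.8% of all genes were, and Gbp4 read 4.54 and 5.08 on the KO arrays and 5.67 on WT_IMQ. T cell genes, which mark cells that make interferon gamma, were higher on both KO arrays in 7 of 12 (58.3%) without IMQ. Of all genes 31.1% were, and the list medians were 0.30 on KO_CTRL and 0.14 on KO_CTRL-B. Of the 12, 1 was lower on both and 4 were split. Most were dim, as only 2 of the 12 had a reading above the median gene level on the 3 arrays. The part of T cells in the interferon values was not tested.

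The bases before the start sites of Oas1g and Ifit1 are shown because these genes had the largest and the second largest fitted difference of the type I list, and because their promoters hold a motif known from the promoters of interferon response genes. They are the 250 bases before each start, on the gene's strand, from RefSeq on GRCm38.p6, at chr5:120887614-120887863 on the minus strand for Oas1g and chr19:34640639-34640888 on the plus strand for Ifit1. Capitals mark matches to the motif, which is GAAA, any 2 bases and GAAA, or on the other strand TTTC, any 2 bases and TTTC.
Oas1g: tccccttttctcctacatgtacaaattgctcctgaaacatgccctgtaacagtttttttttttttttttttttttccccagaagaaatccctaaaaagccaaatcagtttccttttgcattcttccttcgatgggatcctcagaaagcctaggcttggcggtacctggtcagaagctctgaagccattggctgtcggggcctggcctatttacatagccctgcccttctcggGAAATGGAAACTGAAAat
Ifit1: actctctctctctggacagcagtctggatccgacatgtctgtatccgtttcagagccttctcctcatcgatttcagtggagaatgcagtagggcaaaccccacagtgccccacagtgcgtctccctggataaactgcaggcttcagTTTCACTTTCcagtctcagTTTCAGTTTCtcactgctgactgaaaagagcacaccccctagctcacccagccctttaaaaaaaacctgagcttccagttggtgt
Oas1g held 2 overlapping matches that begin 18 and 12 bases before its start, and Ifit1 held 2 separate matches that begin 104 and 85 bases before its start. In windows of 250 bases before to 50 after the start, on either strand and with overlaps allowed, the motif was in 10 of the 18 type I list genes that have a promoter in the table (55.6%), in 6 of 13 interferon gamma genes (46.2%), in 0 of 12 sebaceous genes and in 1079 of all 27025 genes (3.99%). A match describes the letters and says nothing about binding in this skin.

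Of the IL-36 genes, Il1f9 was among the 12 furthest higher. The IL-36 cytokines are made by keratinocytes and act through the receptor chain Il1rl2. IL-36 gamma, annotated as Il1f9, read 8.12 and 7.68 on the KO arrays and 6.79 on WT_CTRL (1.11 ± 0.27), and IL-36 beta, annotated as Il1f8, read 7.35 and 7.51 on the KO arrays and 6.62 on WT_CTRL (0.82 ± 0.19). Il1f5, the gene of the IL-36 receptor antagonist, read 8.85 and 9.24 on the KO arrays and 8.43 on WT_CTRL. IL-36 alpha, annotated as Il1f6, was less apart, at 6.67 and 7.30 on the KO arrays and 6.57 on WT_CTRL. With IMQ the 4 genes were closer together between the genotypes, with fitted differences of 0.28 for Il1f9, 0.10 for Il1f8, 0.01 for Il1f5 and -0.26 for Il1f6. In the whole IL-1 and IL-36 list, 7 of 13 members (53.8%) were higher on both KO arrays and 1 was lower, where 31.1% and 27.8% of all genes were. The receptor chain gene Il1rl2 was split at 9.64 and 9.39 on the KO arrays against 9.41 on WT_CTRL.

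The IL-22 pathway itself showed no common direction without IMQ. Of 19 measured genes of the receptor and IL-20 family list, 7 (36.8%) were higher on both KO arrays, 3 lower and 9 split, where 31.1% of all genes were higher. Il10rb, the partner chain of Il22ra1, read 7.25 and 7.68 on the KO arrays and 7.26 on WT_CTRL. Il22 itself read 1.76 and 1.80 on the KO arrays and 2.06 on WT_CTRL, near the bottom of the scale. Il22ra2, the soluble decoy receptor that binds IL-22, read 5.72 and 5.36 on the KO arrays and 5.11 on WT_CTRL, and Il20, a relative of IL-22, read 5.56 and 5.88 on the KO arrays and 5.13 on WT_CTRL. The other receptor chains Il20ra, Il20rb, Il10ra and Ifnlr1 had fitted differences of -0.01, 0.28, 0.28 and 0.26, and the cytokine genes Il19, Il24 and Il10 had 0.02, -0.11 and -0.05. The signal carriers Jak1, Tyk2, Stat3, Stat5a and Stat5b had fitted differences of -0.02, -0.23, 0.12, -0.04 and -0.04, and the feedback inhibitors Socs3 and Socs1 had 0.20 and -0.12. None of these genes was 1.5-fold apart from WT_CTRL in the same direction on both KO arrays.

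Genes known as IL-22 targets of epithelium were not lower as a group on the arrays labelled KO. Of 23 measured, 12 (52.2%) were higher on both KO arrays, where 31.1% of all genes were, 2 were lower (Bcl3 and Hp) and 9 split, with medians of 0.09 on KO_CTRL and 0.20 on KO_CTRL-B. Defb4, a beta-defensin gene, read 6.07 and 6.26 on the KO arrays and 5.40 on WT_CTRL, and Lbp, whose product binds lipopolysaccharide, read 8.34 and 8.28 on the KO arrays and 7.82 on WT_CTRL. S100a8 was split at 5.27 and 5.74 on the KO arrays and 5.57 on WT_CTRL, while its partner S100a9 read 6.05 and 6.01 on the KO arrays and 5.60 on WT_CTRL. Reg3g, another antimicrobial gene, read 3.14 and 3.17 on the KO arrays and 3.07 on WT_CTRL. With IMQ 17 of the 23 were higher on both KO arrays and 4 lower, where 39.0% and 30.8% of all genes were, with medians of 0.61 on KO_IMQ and 0.41 on KO_IMQ_B. Reg3g was among the lower ones there, at 2.89 on both KO arrays and 3.69 on WT_IMQ.

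Genes next to Il22ra1 on its chromosome were looked at because a targeted allele can carry flanking DNA of its strain of origin. Of 22 measured, Il22ra1 included, 6 (27.3%) were higher on both KO arrays, 4 (18.2%) lower and 12 split, where 31.1% and 27.8% of all genes were higher and lower, with a median of 0.03 on each KO array. Their fitted differences lay between -0.41 (Ncmap) and 0.52 (Il22ra1). Genes known to vary between C57BL/6 substrains were measured as well, and Nnt, a mitochondrial transhydrogenase gene that is defective in C57BL/6J, read 7.01 and 7.07 on the KO arrays and 7.00 on WT_CTRL.

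Cell cycle genes were lower on both KO arrays in 15 of 19 measured members (78.9%), where 27.8% of all genes were, and 0 were higher on both. The median was -0.53 on KO_CTRL and -0.11 on KO_CTRL-B, and no member was 1.5-fold lower on both. Aurka, a mitotic kinase gene, read 6.80 and 6.88 on the KO arrays and 7.32 on WT_CTRL (-0.48 ± 0.16), and Pcna, the clamp of DNA polymerase, read 8.81 and 8.96 on the KO arrays and 9.18 on WT_CTRL. Mki67, a marker of dividing cells, was split at 9.85 and 10.19 on the KO arrays against 10.16 on WT_CTRL. Growing hair follicles hold many dividing cells, and the hair list was low on KO_CTRL, the array with the lower cell cycle median; the part of follicle content was not tested. With IMQ 7 of the 19 were higher on both KO arrays and 2 lower, where 39.0% and 30.8% of all genes were.

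**Figure D4:**
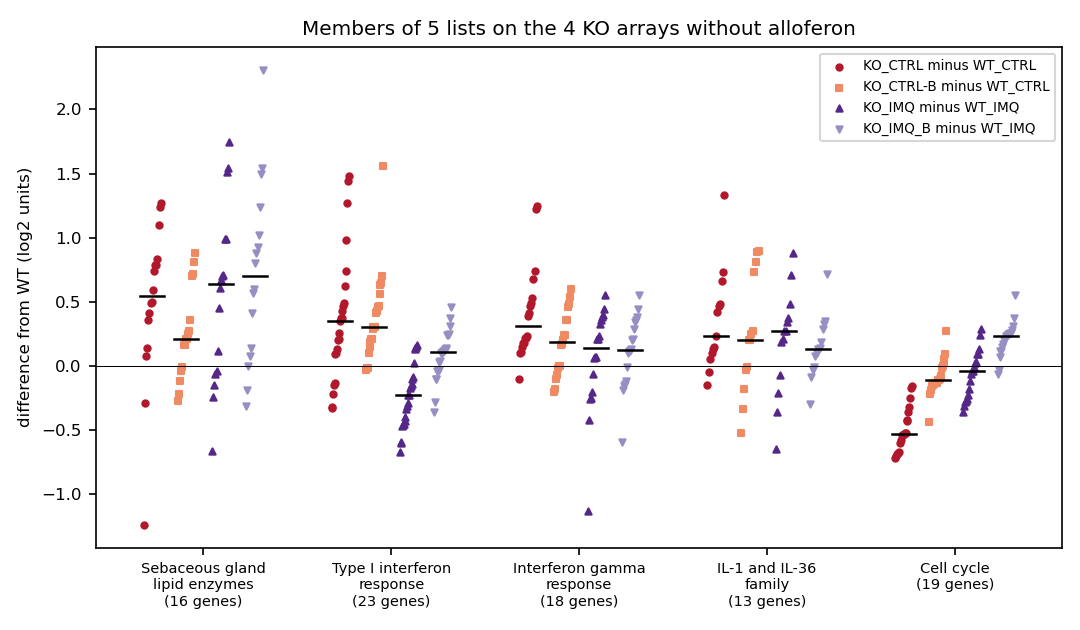
Log2 difference from WT of every measured member of 5 gene lists on KO_CTRL (circles), KO_CTRL-B (squares), KO_IMQ (upward triangles) and KO_IMQ_B (downward triangles), each against the WT array with the same IMQ status; bars are medians. The sebaceous medians are above 0 on all 4 arrays (0.54, 0.21, 0.64 and 0.70), as are those of the interferon gamma and the IL-1 and IL-36 lists. Those of the type I interferon and cell cycle lists lie on both sides of 0.

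Hair shaft genes were the furthest apart among those on which the KO arrays went opposite ways. At 2-fold, 47 genes (0.212%) did so, and 135 (0.609%) did at 1.5-fold. Of the 47, 43 (0.194%) were low on KO_CTRL and high on KO_CTRL-B, and 4 (0.018%) the reverse. Krtap19-1, which encodes a keratin-associated protein of the hair shaft, read 2.83 on KO_CTRL and 9.44 on KO_CTRL-B, against 6.62 on WT_CTRL. Krtap16-3 read 2.06 on KO_CTRL and 8.27 on KO_CTRL-B, against 5.61 on WT_CTRL. For both genes WT_CTRL lay between the KO arrays, and the others of the 6 furthest apart in this direction, Krtap19-2, Krtap19-4, Krtap19-5 and Krtap6-3, were ordered likewise. Of 29 measured hair shaft and inner root sheath genes, 29 were split, where 40.9% of all genes were. Their differences were -5.17 to -0.55 on KO_CTRL and 0.05 to 1.77 on KO_CTRL-B. The 11 melanocyte genes were also all split, with medians of -1.31 on KO_CTRL and 0.28 on KO_CTRL-B, and Tyr, the key enzyme of melanin synthesis, read 5.03 on KO_CTRL and 7.26 on KO_CTRL-B, against 6.98 on WT_CTRL.

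In the reverse direction the 6 genes furthest apart were Serpinb6d, S100a7l2, Cox6a2, Defb8, Trdn and Asb15. Serpinb6d, a clade B serpin gene, read 10.57 on KO_CTRL and 6.25 on KO_CTRL-B, against 8.31 on WT_CTRL. Trdn, which encodes triadin of the calcium release complex of muscle, read 10.82 on KO_CTRL and 7.54 on KO_CTRL-B, against 9.84 on WT_CTRL. Of 23 skeletal muscle genes 21 were split, where 40.9% of all genes were, with medians of 0.29 on KO_CTRL and -1.60 on KO_CTRL-B. Myh4, a fast myosin gene, read 12.88 on KO_CTRL and 9.43 on KO_CTRL-B, against 12.60 on WT_CTRL. Adipocyte genes were split in 10 of 13, with medians of 0.22 on KO_CTRL and -0.59 on KO_CTRL-B. These lists of skin structures thus differ between the KO arrays, and a mean of the KO arrays over their genes describes neither array.

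The counts of other skin and immune lists stand against 31.1% of all genes higher on both KO arrays, 27.8% lower on both and 40.9% split. Epidermal differentiation genes were higher on both KO arrays in 11 of 22, with medians of 0.21 on KO_CTRL and 0.18 on KO_CTRL-B, and Hrnr, which encodes a filaggrin-like protein, read 10.71 and 10.52 on the KO arrays and 9.97 on WT_CTRL. Epidermal lipid and eicosanoid enzymes were higher on both in 8 of 14 and lower in 0, with medians of 0.42 on KO_CTRL and 0.20 on KO_CTRL-B. Cyp4f39, which makes the ultra-long hydroxylated fatty acids of barrier ceramides, read 9.68 and 9.48 on the KO arrays and 9.06 on WT_CTRL. IL-23 and IL-17 genes were higher on both in 7 of 12, with Il17f at 5.61 and 5.82 on the KO arrays and 5.20 on WT_CTRL. The 4 wound and hyperproliferation keratins were all split, and Krt6b read 4.67 on KO_CTRL and 7.49 on KO_CTRL-B, against 5.00 on WT_CTRL. Fibroblast and collagen genes were lower on both in 7 of 15, and Col3a1 read 11.58 and 11.89 on the KO arrays and 12.05 on WT_CTRL. Immediate early genes were lower on both in 8 of 15, with Fos at 7.96 and 7.82 on the KO arrays and 8.38 on WT_CTRL. Monocyte and macrophage genes were split in 11 of 17, and neutrophil genes were higher on both in 8 of 13 with medians of 0.16 on both arrays. Most neutrophil, IL-23 and IL-17 genes were dim. A reading above the median gene level on the 3 arrays was seen for 2 of the 13 neutrophil genes. It was seen for 3 of the 12 IL-23 and IL-17 genes.

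**Figure D5:**
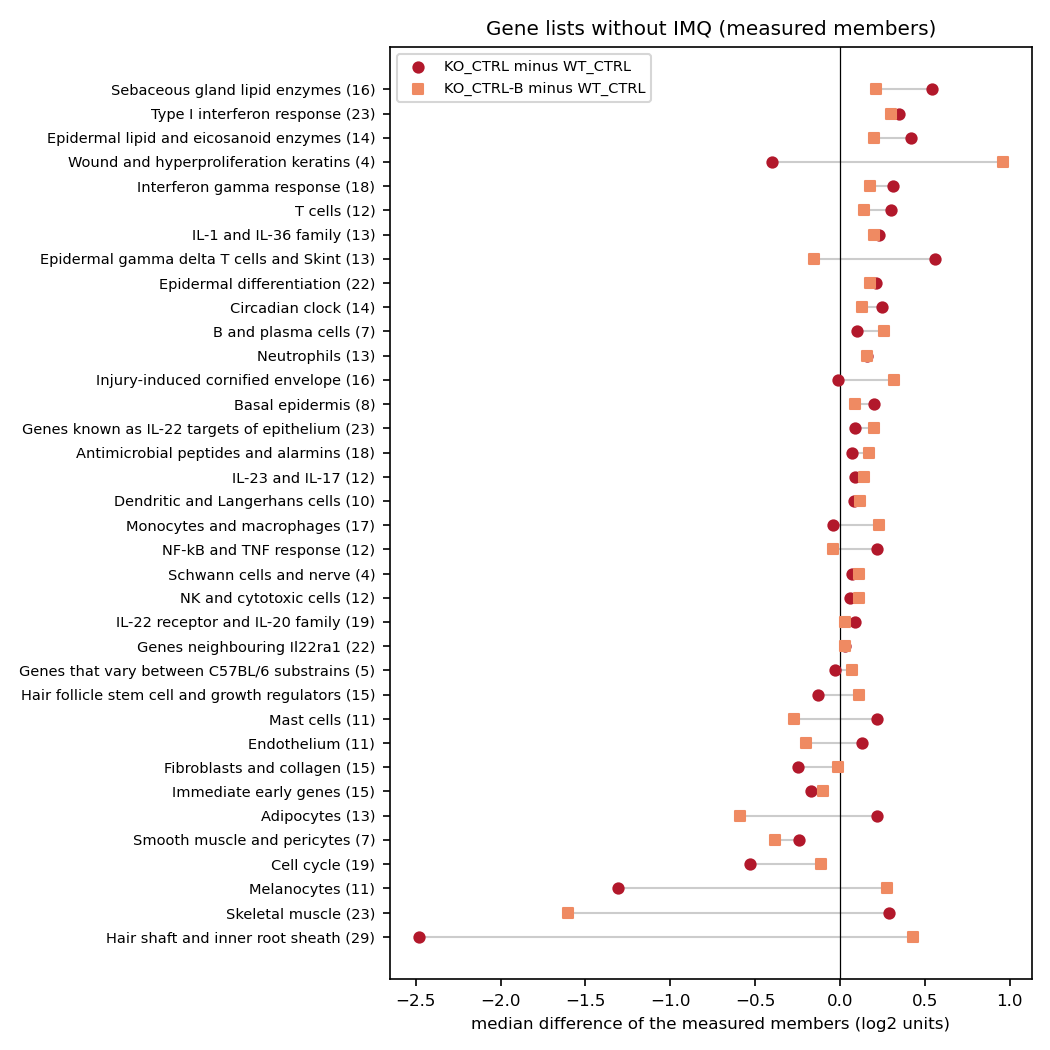
Median log2 difference from WT_CTRL over the measured members of each gene list on KO_CTRL (circles) and KO_CTRL-B (squares), with the number of members in parentheses and lists ordered by the mean of both medians. Sebaceous, interferon and epidermal lipid lists lie above 0 on both KO arrays and the cell cycle list below 0, while hair, muscle, melanocyte and adipocyte lists lie on both sides.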

How the data were processed

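The values are log2 expression after robust multi-array averaging, deposited by the authors for 8 skin arrays; Affymetrix Power Tools and R 3.3.2 are named, per the submitters' processing notes. The labels name no build for the array's annotation. RNA was total RNA of dorsal skin, 100 ng per sample per the labels. Of 41345 probe sets, 23521 had 1 gene symbol, 1814 several and 16010 none; only the first were used, and 1082 genes with several probe sets kept the brightest by its mean over 8 arrays, which left 22180 genes. Array medians lay between 5.68 and 5.73, and no further normalization was applied.

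limma 3.58.1 in R 4.3.3 was fitted with a mean for each of 6 groups, KO_CTRL with KO_CTRL-B and KO_IMQ with KO_IMQ_B being read as arrays of 1 group each, which left 2 residual degrees of freedom. P-values were adjusted by Benjamini-Hochberg over 22180 genes. The fit was tested on simulated data with 200 shifted genes. Tables were made with Python 3.11.15, pandas 2.3.3, numpy 2.4.6 and matplotlib 3.10.9. 38 gene lists were described by counts and medians. The genes and lists were chosen with earlier results of these data known. Named genes were the 12 furthest higher and 12 furthest lower on both KO arrays and the 6 furthest apart each way. They were ranked by the smaller difference among genes whose highest reading on the 3 arrays was above the median gene level. Clone-type, small RNA, receptor and antigen receptor segment genes were left out of that ranking by the pattern of their symbols. The accession-type symbol DQ267102 was not among those patterns, and its kind of gene was not checked. List members were named for their direction or role, and Il22ra1 and its receptor list in full. Arrays have no counts, so that their number limits the precision. Promoters came from RefSeq on GRCm38.p6. The alternatives tried were left-out arrays, a filter on dim genes, other normalization, probe set and fold settings, and the letter B as a block.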

Additional observations from a re-analysis of the deposited data

How the results depend on the processing

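In limma 0 genes passed under each of 10 alternatives, with a smallest adjusted p of 0.321 to 1 without IMQ, 0.653 to 1 with IMQ and 0.655 to 1 for their difference, and with 243 to 1685, 501 to 1626 and 231 to 1666 genes at an unadjusted p under 0.05. With the letter B as a replicate block the counts were 0, with smallest adjusted p of 0.321, 0.653 and 0.9946 in limma and 1188, 1343 and 874 genes at an unadjusted p under 0.05. Nothing in the labels says that arrays with the letter B share mice or a day. The B minus other array differences without and with IMQ correlated at 0.33 over 22180 genes. Without hair list, keratin and keratin-associated genes they correlated at 0.25 over 22066 genes. The 24 named higher and lower genes kept their direction with probe sets averaged and with quantile normalization again. Averaging could change only Oser1, Slc36a4, Erdr1 and Abracl, as the others have 1 probe set each. It moved the fitted difference from -0.63 to -0.25 for Oser1 and from -0.6 to -0.24 for Slc36a4. For Erdr1 it moved from -0.76 to -0.56, and for Abracl from -0.63 to -0.65. Leaving out a KO array could not turn the direction, since both KO arrays chose these genes. Counts past a fold threshold depended on it and on the arrays. The 11 genes 2-fold apart in 1 direction became 195 at 1.5-fold, 2 without dim genes and 253 to 297 with 1 KO array left out. The 47 opposite genes became 135 at 1.5-fold. The 17 higher genes became 0 at 2-fold and 21 to 52 with 1 KO array left out, and the 4 lower genes became 0 at 2-fold, 1 without dim genes and 6 to 32 with 1 KO array left out. With 1 KO array left out, 8 to 11 IL-1 and IL-36 genes and 14 to 19 IL-22 targets were higher. Leaving out an array asks less of a gene, which raises such counts by construction. A single WT array and 2 KO arrays limit the precision.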

Other observations

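Box H/ACA small nucleolar RNA genes, which guide pseudouridylation of ribosomal RNA, were lower on both KO arrays without IMQ in 21 of 26 (80.8%), where 27.8% of all genes were. The family was chosen after its values were seen. Snora23 read 10.43 and 10.05 on the KO arrays and 11.08 on WT_CTRL, and Snora31 read 8.63 and 9.13 on the KO arrays and 10.01 on WT_CTRL. With IMQ 15 of the 26 (57.7%) were lower on both KO arrays, where 30.8% of all genes were. Box C/D genes were lower on both in 16 of 47 (34.0%) without IMQ.

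Of circadian clock genes, 6 of 14 (42.9%) were higher on both KO arrays, not far from the 31.1% of all genes, and 1 was lower. Nr1d1, the repressor Rev-erb alpha, read 8.82 and 8.62 on the KO arrays and 7.87 on WT_CTRL, and Nr1d2 read 8.06 and 7.78 on the KO arrays and 7.29 on WT_CTRL. With IMQ Nr1d1 read 8.29 and 8.11 on the KO arrays and 8.28 on WT_IMQ. The labels do not give the hour of sampling.

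Late cornified envelope genes of the Lce1 group were higher on both KO arrays in 8 of 11 (72.7%) without IMQ, where 31.1% of all genes were, with medians of 0.16 on KO_CTRL and 0.87 on KO_CTRL-B, and 1 of the 11 was higher on both with IMQ, where 39.0% of all genes were. The group was chosen after its values were seen.

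Of the genes 1.5-fold higher on both KO arrays with a known place, 6 of 101 (5.94%) were on the chromosome of Il22ra1, where 1125 of 18987 genes (5.93%) are. Of the genes 1.5-fold higher on both KO arrays both without and with IMQ, 2 of 16 (12.5%) were, Aadacl3 and Aadacl4fm5, which lie near each other with 5 protein-coding genes between them.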
